A study of Mus musculus with 11 samples.

Results

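Natural killer (NK) cells of the mouse kidney were chosen by their UMI counts, and 121 barcodes of the 45454 kept in 11 single-cell libraries met the rule. A barcode was kept when it held at least 500 UMIs (unique molecular identifiers, each standing for 1 captured transcript) and 200 genes, with at most 30% mitochondrial UMIs. It was called an NK cell when at least 2 of *Ncr1*, *Klrb1c*, *Gzma* and *Klre1* were detected. *Cd3e*, *Cd3d*, *Cd3g*, *Cd79b* and *Epcam* had to be at 0, and fewer than 2 of *C1qa*, *C1qb* and *C1qc* could be detected. The 4 markers, and the levels of other genes in the chosen cells against other cells, are therefore descriptions and carry no test.

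The libraries came from kidneys of male C57Bl/6 mice, and the injured mice entered the study at 10 weeks of age. In the UIR model (unilateral ischemia/reperfusion) the left renal pedicle was clamped for 30 minutes at 37 °C. In the UUO model (unilateral ureter obstruction) the left ureter was tied off for good, and kidneys of both models were collected on day 28. Naive mice matched for age, strain and sex were the controls, which gave 5 control, 3 UIR and 3 UUO libraries of whole-kidney cell suspensions without sorting for immune cells. Neither model carries a transgene, and the side of the control kidney is not given in the sources used here.

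NK cells are innate lymphocytes that kill infected, stressed or transformed cells without a rearranged antigen receptor. They weigh signals from activating receptors such as NKp46 (*Ncr1*), NK1.1 (*Klrb1c*) and NKG2D (*Klrk1*) against inhibitory receptors of the Ly49 (*Klra*) and CD94/NKG2A (*Klrd1*, *Klrc1*) families that read MHC class I on the target. Killing runs through granules of perforin and granzymes, and NK cells also secrete interferon gamma and the chemokines CCL3, CCL4, CCL5 and XCL1. In mouse tissues they share *Ncr1* and *Klrb1c* with type 1 innate lymphoid cells (ILC1), which are tissue-resident relatives that depend less on *Eomes* and more often carry CD49a (*Itga1*), CXCR6 and the IL-7 receptor.

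The 4 genes of the rule lie on 3 chromosomes of GRCm38, the build of the count tables. *Klrb1c* (chromosome 6, 128778485 to 128789215, minus strand) and *Klre1* (chromosome 6, 129577905 to 129585827, plus strand) belong to the NK gene complex, a cluster of C-type lectin receptor genes. The Ly49 genes of the same cluster span 129831154 to 130386874. *Ncr1* is on chromosome 7 (4337724 to 4345164, plus strand) and *Gzma*, which encodes granzyme A, on chromosome 13 (113093825 to 113100981, minus strand). Their promoters are shown because these 4 genes define the cells. Each window runs from 250 bases before to 50 bases after the first RefSeq start of the gene in GRCm38.p6, 5′ to 3′, and capitals mark TGTGGT, the core bound by Runx factors, or its reverse complement ACCACA.
Ncr1, chr7:4337465-4337764, plus strand: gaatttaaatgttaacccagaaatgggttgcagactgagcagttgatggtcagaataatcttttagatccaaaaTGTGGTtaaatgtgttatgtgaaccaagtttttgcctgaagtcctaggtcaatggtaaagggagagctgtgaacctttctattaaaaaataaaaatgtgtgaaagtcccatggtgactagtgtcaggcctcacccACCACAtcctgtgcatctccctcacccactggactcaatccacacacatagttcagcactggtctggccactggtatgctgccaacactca
Klrb1c, chr6:128788592-128788891, minus strand: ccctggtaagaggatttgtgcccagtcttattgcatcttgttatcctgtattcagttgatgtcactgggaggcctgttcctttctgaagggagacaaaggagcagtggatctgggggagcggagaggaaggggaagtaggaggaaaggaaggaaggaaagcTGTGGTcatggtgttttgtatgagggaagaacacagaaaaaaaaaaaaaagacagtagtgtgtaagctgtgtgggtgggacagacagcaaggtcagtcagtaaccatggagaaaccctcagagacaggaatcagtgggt
Klre1, chr6:129577963-129578262, plus strand: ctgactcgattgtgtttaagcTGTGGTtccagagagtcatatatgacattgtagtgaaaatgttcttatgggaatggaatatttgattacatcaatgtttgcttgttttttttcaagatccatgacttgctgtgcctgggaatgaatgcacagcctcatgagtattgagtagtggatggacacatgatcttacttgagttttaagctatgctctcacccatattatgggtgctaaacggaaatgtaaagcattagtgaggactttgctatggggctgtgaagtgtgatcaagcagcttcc
Gzma, chr13:113100932-113101231, minus strand: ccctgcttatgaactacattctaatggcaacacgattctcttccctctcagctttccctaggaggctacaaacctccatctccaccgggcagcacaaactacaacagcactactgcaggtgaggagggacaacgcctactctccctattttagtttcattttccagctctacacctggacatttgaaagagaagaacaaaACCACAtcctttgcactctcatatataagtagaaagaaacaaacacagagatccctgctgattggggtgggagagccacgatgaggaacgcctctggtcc
The *Ncr1* window held 2 matches and each of the other windows 1. The window of a second *Klre1* start (chr6:129578036-129578335) held 0, and that of a second *Ncr1* start held 2. TGTGGT was found on either strand in 10 of the 15 NK identity and gate genes with an entry, of 20 looked up, against 16.9% of the first promoters of 27025 genes. The T-box core GGTGTG was found in 5 of the 15 against 19.0%, and the Ets core GGAAGT in 6 of the 15 against 24.1%. The 15 include the 4 genes shown, and several of the 20 are related genes of the NK gene complex. They are thus not independent, and the shares were not tested. In *Ncr1* and *Gzma* the match continued as ACCACATCCT, a 10-letter run present in 26 of 32851 promoters (0.0791%), which was looked for after the matches had been seen. These matches describe letters in the windows and no binding was measured.

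Libraries held 49503312 to 117043590 UMIs in all, and the 121 NK cells a median of 2476 to 5256.5 UMIs per library. The libraries had no NK barcode in common as an NK cell over the 55 pairs, and 3 NK barcodes were kept as another cell elsewhere. Tubular transcripts in empty droplets amounted to 17393 to 77440 CPM (counts of UMIs per 1000000 UMIs of the pool) in control pools, 12305 to 25229 in UIR pools and 3361 to 7116 in UUO pools, so these transcripts made up least of the free RNA in the UUO libraries. The share of the NK UMIs expected from free RNA, set by 16 tubular genes, was 5.01% to 55.4% in control pools, 8.16% to 35.5% in UIR pools and 1.64% to 10.3% in UUO pools.

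The edge of the rule was clear for *Nkg7* and less so for other genes that it did not use. *Nkg7*, a granule membrane protein of cytotoxic lymphocytes, was detected in 86 of 86 barcodes with 3 or 4 of the markers, in 29 of 35 with exactly 2, and in 9 of 116 with exactly 1 that met the other terms and stayed outside. *Klrd1* was detected in 47.4% just outside and 60% just inside, *Klrk1* in 45.7% and 71.4%, and *Tyrobp* in 62.9% and 77.1%. *Lyz2*, a macrophage and monocyte gene, was detected in 57.8% of the barcodes just outside, whose median was 9063 UMIs, and in 22.9% of those just inside, at a median of 3179 UMIs. Of 255 kept barcodes with at least 2 markers, 108 carried a *Cd3* gene, 22 carried 2 or more *C1q* genes and 32 carried *Cd79b* or *Epcam*. The *Cd3* term alone left out 7 of 21 such barcodes in controls, 46 of 94 in UIR and 37 of 140 in UUO. Its part in the shares of NK cells given below was not tested.

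As a pool, the chosen cells carried NK genes beyond the rule, while 43 of the 121, described below, rarely had *Eomes*, *Gzmb* or *Itga2*. For comparison, T cells (at least 2 of *Cd3e*, *Cd3d*, *Cd3g* and *Trac*, fewer than 2 *C1q* genes) numbered 3092 with a median of 4118 UMIs, and macrophages (at least 2 *C1q* genes and no *Cd3* gene) 8356 with a median of 1152, against 4027 in NK cells. In both of these classes *Cd79b* and *Epcam* had to be at 0, too. *Nkg7* was detected in 115 of the 121 NK cells at 2978 CPM, with 1168 in T cells and 5.55 in macrophages. *Klrk1*, the activating receptor NKG2D, was detected in 90.9% of NK cells, 19.0% of T cells and 3.35% of macrophages. *Klrd1*, the CD94 partner of the NKG2 receptors, was detected in 83.5%, 19.99% and 1.54%. *Tyrobp* and *Fcer1g*, signaling adaptors shared by NK and myeloid cells, stood at 2549 and 2159 CPM in NK cells, near the 2058 and 2092 of macrophages, and at 52.5 and 66.6 in T cells. *Ccl5* was detected in 95.9% of NK cells, 73.7% of T cells and 10.6% of macrophages.

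Several genes of the Ly49 family, which holds inhibitory and activating receptors, were frequent in NK cells and rare in T cells. *Klra8*, the activating receptor Ly49H, was detected in 51 NK cells (42.1%), in 3 T cells (0.0970%) and in 4 macrophages. *Klra4*, the activating receptor Ly49D, was detected in 37 NK cells (30.6%) and in 0 of 3092 T cells, which allows a share of up to 0.0970%. *Klra9* was detected in 38.8% and *Klra7* in 36.4% of NK cells, against 1.65% and 2.39% of T cells. *Klra3* was detected in 14.9% and 1.10%, and *Klra1* in 5.79% and 1.71%. *Klra5*, *Klra6* and *Klra10* were each detected in 3 NK cells and *Klra17* in 1. Ly49 genes are close copies of each other, so reads could be divided between them and the single members are uncertain.

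Some markers of other cells were absent from the 121 NK cells and others were detected in many of them. Of 13 T cell markers, *Cd4*, *Cd8a*, *Cd8b1*, *Cd6* and *Themis* were detected in 0 of 121 cells, which allows a share of up to 2.48%. *Trac*, the constant gene of the T cell receptor alpha chain, was detected in 8 cells. *Trbc1* was detected in 88 and *Trbc2* in 43, and beta chain constant transcripts without a rearrangement are known from NK cells. *Lef1* was detected in 22 NK cells and *Cd28* in 17 (18.2% and 14.0%, against 25.3% and 52.5% of T cells), and *Trdc*, the delta chain constant gene, in 29 (24.0%, against 3.04% of T cells). The B cell gene *Cd79a*, the macrophage genes *Adgre1* and *Fcgr1* and the dendritic cell genes *Xcr1* and *Clec9a* were at 0. Of 8 markers of type 2 innate lymphoid cells 5 were at 0, among them *Il1rl1*, and of 6 measured markers of type 3 cells 3 were at 0 (*Il23r*, *Il22* and *Il17a*). The others, such as *Gata3* and *Tmem176b*, were detected. *Apoe* was detected in 57.0% of NK cells, 53.2% of T cells and 95.7% of macrophages. *Lyz2* was detected in 22.3%, 24.8% and 92.4% and *Cd74* in 55.4%, 54.9% and 98.1%. *H2-Ab1* was detected in 37.2%, 29.9% and 92.4% and *Ighm* in 33.1%, 40.8% and 33.1%, so NK cells stood nearer T cells than macrophages in each of these genes but *Ighm*. The summed level of 13 macrophage and monocyte markers was 0 to 46.2 CPM in control NK pools, 352 to 515 in UIR and 233 to 477 in UUO, against 10184 for *Lyz2* alone in macrophages, and its part in the results between groups was not tested.

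**Figure D1:**
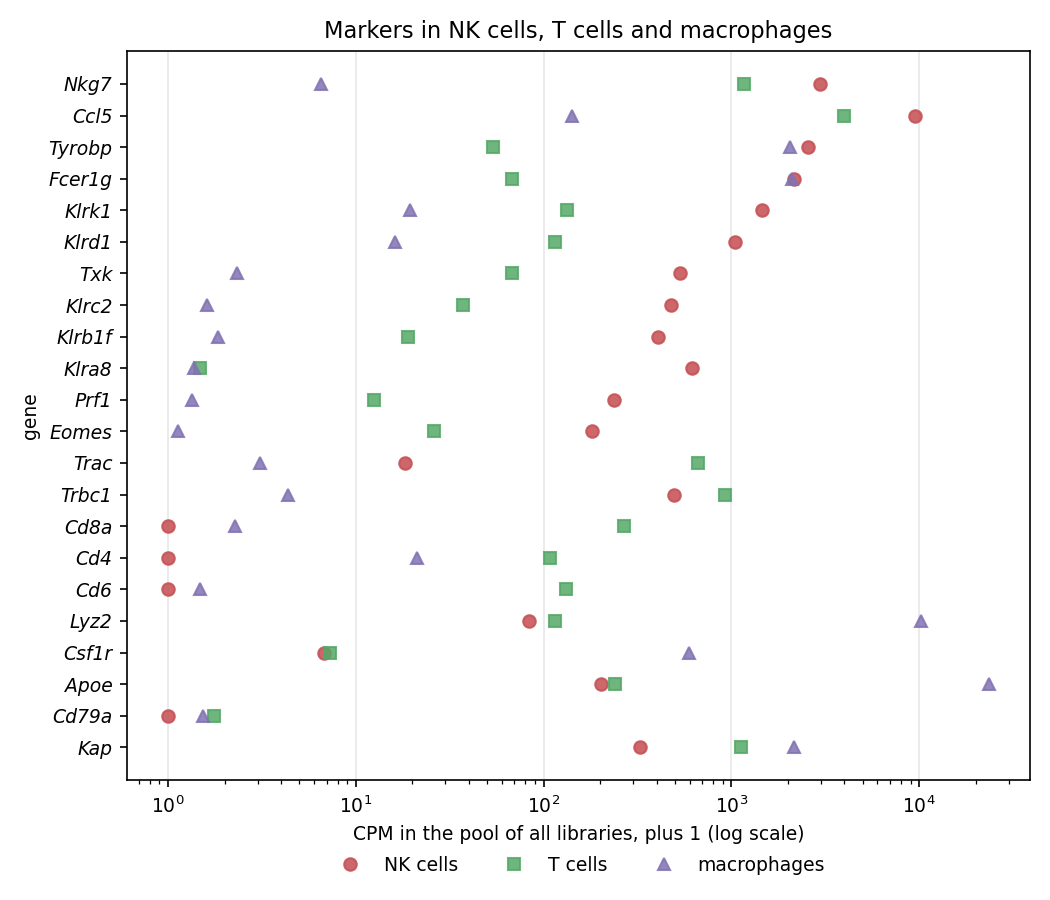
Levels of NK, T cell, macrophage, B cell and tubular genes in NK cells (circles), T cells (squares) and macrophages (triangles), as CPM in the pool of all libraries plus 1 on a log axis. *Klra8* stood at 620 in NK cells and 0.484 in T cells, while *Cd8a*, *Cd4*, *Cd6* and *Cd79a* were at 0 in NK cells.

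Most NK cells carried Ly49 receptors, and those cells differed from the rest in many genes. Cells were split by whether any of 10 *Klra* genes was detected, a split chosen after the values had been seen, so its values are descriptions. The split put 78 cells in the Ly49 class and 43 outside it, at median depths of 4138.5 and 3735 UMIs. Among all 121 cells, 12 carried 1 Ly49 gene, 22 carried 2, 21 carried 3, 20 carried 4 and 3 carried 5. The Ly49 class made up 8 of 13 cells in controls, 23 of 37 after UIR and 47 of 71 after UUO, with exact 95% binomial intervals of 31.6% to 86.1%, 44.8% to 77.5% and 54.0% to 77.0% that overlap and cover counting error only. By library it held 2 of 4, 1 of 2, 1 of 3, 2 of 2 and 2 of 2 control cells. It held 4 of 8, 10 of 13 and 9 of 16 UIR cells and 18 of 29, 21 of 32 and 8 of 10 UUO cells, so both classes were present in every injured library.

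*Gzmb* and *Prf1* were detected mainly in the Ly49 class, and *Nkg7* in most cells of both classes. *Gzmb*, which encodes granzyme B, was detected in 41 of 78 cells of the Ly49 class and 3 of 43 cells outside it. *Prf1*, the pore-forming perforin, was detected in 46 and 9. *Nkg7* was detected in all 78 and in 37 of 43, so the granule protein itself was shared by both classes while its level was 3867 against 1333 CPM. *Gzma*, which is a gene of the rule, was detected in 74 and 8 cells.

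Several transcription factors and receptors known from mature NK cells were detected more often in the Ly49 class, and others nearly as often outside it. *Eomes*, which NK cells need to mature, was detected in 44 of 78 cells and 1 of 43. *Tbx21* (T-bet) was detected in 40 and 9, *Zeb2* in 38 and 4, *Irf8* in 49 and 6, and *Klf2*, a regulator of lymphocyte exit from tissue, in 46 and 5. *S1pr5*, which guides NK cells into blood, was detected in 20 and 0 cells, *Cma1* in 26 and 0, and *Itga2* (CD49b) in 23 and 0, where 0 of 43 allows a share of up to 6.98%. *Ccr2* was detected in 60.3% of cells with and 48.8% without a Ly49 gene, and *Ly6c2* in 29.5% and 23.3%.

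The 43 cells without a Ly49 gene carried another set. *Cxcr6*, a receptor that holds lymphocytes in tissue, was detected in 23 of 43 cells and in 5 of 78 of the Ly49 class. *Il7r* was detected in 17 and 3 cells, *Inpp4b* in 19 and 2, *Rora* in 9 and 1, and *Tmem176b* in 24 and 18. *Cd226*, an activating adhesion receptor, was detected in 24 and 12 cells. *Itga1* (CD49a) was detected in 8 and 4 cells, and no cell carried both *Itga1* and *Itga2* of 12 and 23 that carried either. *Xcl1* was detected in 33 and 41 cells, and *Klrc1*, the inhibitory NKG2A receptor, in 26 and 27. *Tcrg-C4*, a gamma chain constant gene of the T cell receptor, was detected in 17 of 43 cells and 1 of 78, while *Cd3e*, *Cd3d* and *Cd3g* were at 0 by the rule. By *Eomes*, *Itga2*, *Gzmb* and *Prf1* alone, which the rule did not use, the label of NK cells matches the Ly49 class. These genes were picked after their values had been seen. The remaining cells had them less often (in 1, 0, 3 and 9 of 43). Other NK genes went the other way. *Klrb1b* was detected in 23 of 43 remaining cells and 16 of 78 of the Ly49 class, *Cd160* in 21 and 23, and *Klrc1* in 26 and 27. The remaining cells are given no other name here.

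Cells with *Cxcr6* made up 6 of 13 control NK cells, 12 of 37 in UIR and 10 of 71 in UUO. The exact 95% binomial intervals of 19.2% to 74.9%, 18.01% to 49.8% and 6.97% to 24.4% cover counting error only. By library, cells with *Cxcr6* were 1 of 4, 1 of 2, 2 of 3, 1 of 2 and 1 of 2 in controls, 3 of 8, 4 of 13 and 5 of 16 in UIR, and 6 of 29, 4 of 32 and 0 of 10 in UUO, which was not tested. Within the Ly49 class they were 2 of 8, 3 of 23 and 0 of 47, where the last allows a share of up to 6.38%. T cells also express *Cxcr6* (67.0% of them carried a UMI, at nearly the same median depth), so it does not mark NK cells, and macrophages showed it in 0.419%.

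**Figure D2:**
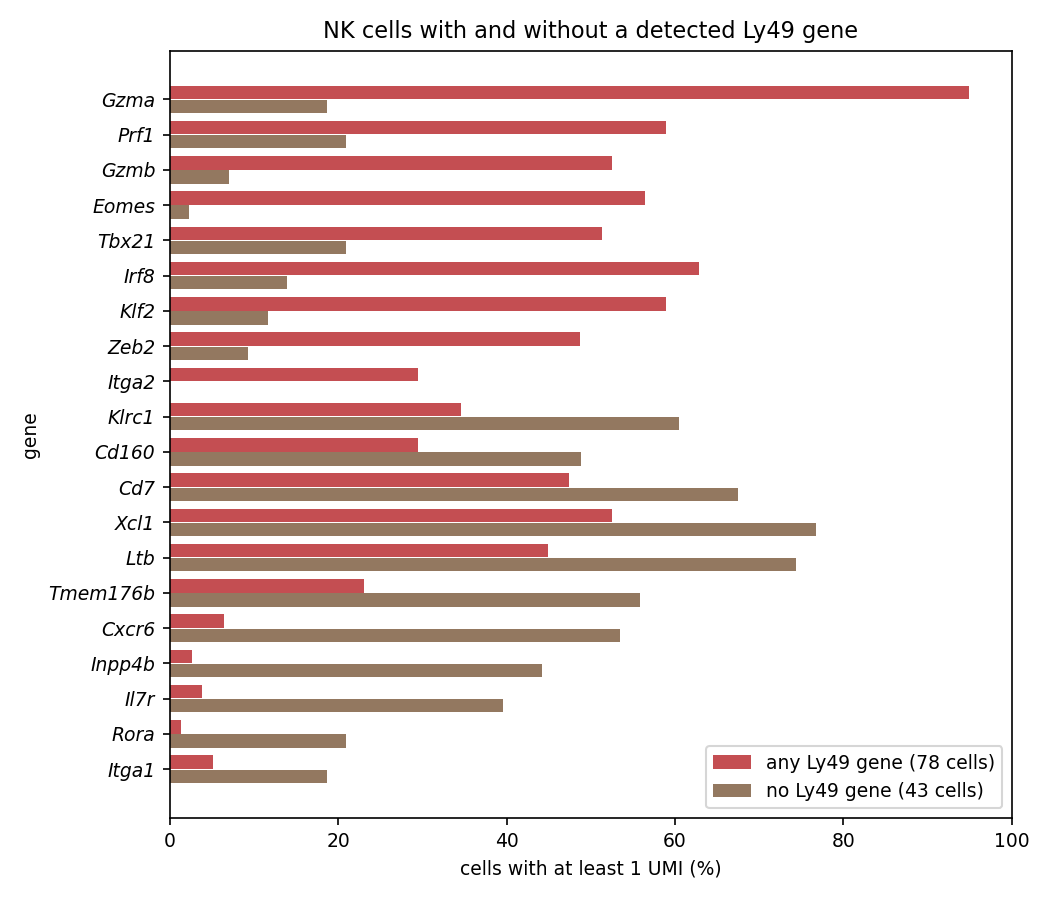
Share of NK cells with at least 1 UMI of each gene (percent, axis from 0), for the 78 cells with any Ly49 gene (upper bars) and the 43 without (lower bars). *Gzmb*, *Eomes* and *Irf8* were detected mainly with Ly49 genes and *Cxcr6*, *Inpp4b* and *Il7r* mainly without.

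NK cells were more frequent among all kidney cells in both injuries and formed a smaller part of NK plus T cells in UIR, by unadjusted tests whose adjusted p stayed above 0.05. They were 0.108% ± 0.0198 (SD, n = 5) of kept barcodes in controls, 0.203% ± 0.0570 (n = 3) in UIR and 0.456% ± 0.191 (n = 3) in UUO. The question of these comparisons is how the number of NK cells relates to the immune cells that gather in a fibrotic kidney. In whole-kidney suspensions a larger share can come from more NK cells or from fewer other cells, which cannot be told apart here.

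The share of kept barcodes was low in every control library, at 0.113%, 0.0995%, 0.141%, 0.0944% and 0.0938% (replicates 1 to 5, from 4, 2, 3, 2 and 2 cells). It was 0.180%, 0.161% and 0.268% in the UIR libraries (8, 13 and 16 cells) and 0.588%, 0.542% and 0.237% in the UUO libraries (29, 32 and 10 cells). Each injured library lay above every control, and UUO replicate 3 fell within the range of UIR. The exact 95% interval of a single library was wide, for example 0.0309% to 0.290% for control replicate 1 and 0.394% to 0.844% for UUO replicate 1, from counting error alone.

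The mean share was 1.87 times the control mean in UIR and 4.20 times in UUO. The exact two-sided permutation test over libraries gave p = 0.0357 for each, the smallest value that 5 against 3 libraries allow, and 0.0804 after Benjamini-Hochberg adjustment over 9 share tests. UUO and UIR differed by 0.253 percentage points with p = 0.2 (exact permutation, smallest possible 0.1), and 2 of 3 UUO libraries lay above all of UIR. Without UIR replicate 3 the UIR excess fell from 0.0946 to 0.0622 percentage points, and without replicate 1 or 2 it was 0.106 or 0.116. The exact permutation p was 0.0952 each time, since 5 against 2 libraries cannot reach 0.05. With 3 of the 4 markers required the UIR excess was 0.0455 and that of UUO 0.235 (exact permutation p = 0.0357 for both). With a mitochondrial limit of 15% the UIR excess was 0.0471 (exact permutation p = 0.464) and that of UUO 0.285 (p = 0.0714). The unadjusted p of both was thus no longer under 0.05. That limit left 4079 of the 11914 control barcodes, and the ratios to control were 1.21 and 2.28. With a limit of 50% they were 3.18 and 8.99, so the size of the ratio depended on the limit.

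Against immune cells the order of the groups changed. All NK cells were set against the number of barcodes with a *Ptprc* UMI (CD45, the pan-leukocyte phosphatase), which 112 of the 121 NK cells carried. They came to 3.28%, 1.40%, 3.06%, 1.48% and 1.29% of that number in controls, 0.710%, 0.558% and 0.739% in UIR and 1.55%, 1.46% and 0.557% in UUO. Each UIR library lay below every control, whereas the UUO libraries overlapped the controls. The mean was 2.10% ± 0.980 (n = 5) in controls and 0.669% ± 0.0968 (n = 3) in UIR, with p = 0.0357 by the exact permutation test and 0.0804 after adjustment. For UUO the mean was 1.19% ± 0.547 (n = 3, exact permutation p = 0.321), and UUO against UIR gave p = 0.4. With only the NK cells that carried *Ptprc*, counted so after seeing the data, the difference from control was -1.05 percentage points in UIR (exact permutation p = 0.0357) and -0.583 in UUO (p = 0.393).

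The ratio to T cells gave the same order of group means as the *Ptprc* barcodes. NK cells made up 19.0%, 8%, 14.3%, 6.67% and 8.33% of NK plus T cells in the controls. They made up 2.43%, 1.95% and 2.11% in the UIR libraries and 5.57%, 7.42% and 2.61% in the UUO libraries. The UIR libraries were lower than all controls and all UUO libraries, and UUO overlapped the controls through replicate 2. The means were 11.3% ± 5.25 (n = 5), 2.16% ± 0.248 (n = 3) and 5.20% ± 2.43 (n = 3). The exact permutation p was 0.0357 for UIR against control (adjusted 0.0804), 0.0714 for UUO against control (adjusted 0.129) and 0.1, the smallest possible, for UUO against UIR (adjusted 0.15). T cells were 0.965% ± 0.321 (SD) of kept barcodes in controls, 9.27% ± 2.80 in UIR and 8.53% ± 1.63 in UUO, and macrophages were 3.102% ± 0.953, 19.2% ± 4.10 and 28.6% ± 5.20, which are given without a test.

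The control libraries carry 3 kinds of names, which the labels do not explain. Against the control of replicate 1 alone, replicates 2 and 3, or replicates 4 and 5, the UIR excess among kept barcodes was 0.0895, 0.0828 and 0.109 percentage points and that of UUO 0.342, 0.336 and 0.362. Against *Ptprc* barcodes the UIR difference was -2.61, -1.56 and -0.717, and of NK plus T cells it was -16.9, -8.98 and -5.34. For UUO these were -2.09, -1.04 and -0.199 against *Ptprc* barcodes and -13.8, -5.94 and -2.30 of NK plus T cells, least against replicates 4 and 5. The direction was the same against each kind of control, and the size was largest against replicate 1 in the last 2 measures.

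**Figure D3:**
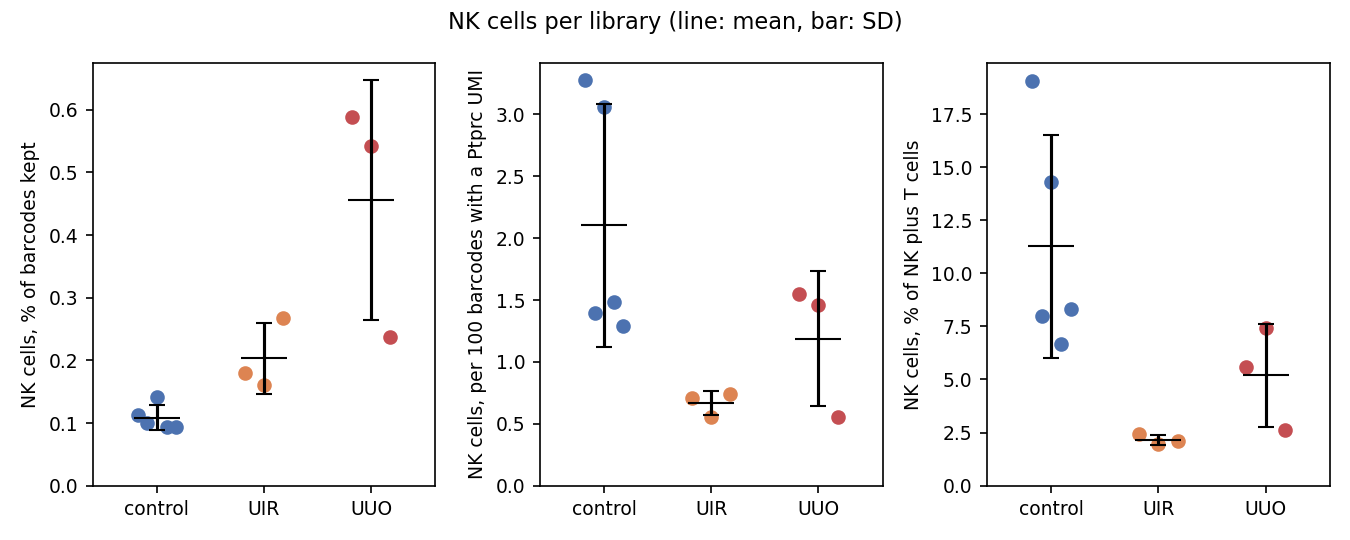
NK cells per library as a percentage of kept barcodes, per 100 barcodes with a *Ptprc* UMI (all NK cells counted), and as a percentage of NK plus T cells; each point is 1 library, the line the mean and the bar the SD. All UIR and UUO libraries exceed all controls in the first panel, and all UIR libraries lie below all controls in the other two.

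The genes of the rule, given as a description, differed little between the pooled NK cells of the 3 groups apart from *Gzma*. *Ncr1* stood at 963, 956 and 740 CPM in control, UIR and UUO cells, *Klrb1c* at 712, 686 and 731, and *Klre1* at 616, 712 and 728. *Gzma* was 2031, 520, 5584, 13823 and 13073 CPM in the control pools, 8954, 3373 and 2662 in the UIR pools and 6973, 7525 and 6771 in the UUO pools. The control and UIR pools were far apart among themselves, and the UUO pools were close to each other. *Gzma* was detected in 8 of 13, 22 of 37 and 52 of 71 cells.

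Expression was tested between UUO and UIR only, since each tested pool had to hold 10 NK cells. UIR replicates 2 and 3 and the 3 UUO libraries met that limit, with 13, 16, 29, 32 and 10 cells, and no control library did. UMIs were summed per library and compared with edgeR's quasi-likelihood test over 1388 genes. Calls are counted over the 1384 of them outside the rule. The test called 1 gene higher in UUO (0.0723% of the 1384) and 9 lower (0.65%), and 128 of the 1384 had an unadjusted p under 0.05. DESeq2 called 0 higher and 6 lower. The median log2 fold change over all genes was 0.01.

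The gene called higher in UUO was *Ly6c2*, a GPI-anchored surface protein of the Ly6C family that rises as NK cells mature. It stood at 120 and 261 CPM in UIR replicates 2 and 3 and at 500, 761 and 500 in UUO, with no overlap. Its log2 fold change was 1.54 ± 0.37 (SE, edgeR adjusted p = 0.0388). These levels rested on few cells: 1 cell held all 6 UMIs of UIR replicate 2 and another 13 of the 20 of UIR replicate 3, and in UUO replicate 2 1 cell held 49 of 99 UMIs, from 6 of 32 cells. UIR replicate 1, which was too small to test, had 583, and the controls ranged from 0 to 2317. With pools of at least 5 NK cells, which add UIR replicate 1, 0 genes were called higher in UUO. The call was lost without each of UIR replicates 2 and 3 and UUO replicates 2 and 3 (adjusted p = 0.148 to 0.655).

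*Xcl1*, the chemokine that draws cross-presenting dendritic cells, had the smallest adjusted p among the called genes with under 50% of their counts expected from free RNA. It stood at 3234 and 1031 CPM in UIR replicates 2 and 3 and at 722, 423 and 834 in UUO. The log2 fold change was -1.72 ± 0.35 (SE, edgeR adjusted p = 0.00613). Without UIR replicate 2 it was -0.67 with an adjusted p of 0.946, so this library decided the call, and 1 of its cells held 85 of its 162 *Xcl1* UMIs. The call was also lost without UUO replicates 2 and 3 (adjusted p = 0.250 and 0.120). Over all 16 alternatives it held in 6 and was lost in 10. The untested pools were at 1166 in UIR replicate 1 and 3786, 935, 127, 1338 and 3475 in controls. *Xcl1* was detected in 10 of 13 cells in controls, 26 of 37 after UIR and 38 of 71 after UUO. In the Ly49 class its level was 2080, 1864 and 417 CPM in control, UIR and UUO cells, and outside that class 2757, 1561 and 987. These levels pool the cells of all libraries, and the order of the groups was not tested. In the Ly49 class the intervals for counting error overlapped between control and UIR cells (1605 to 2651 and 1611 to 2144 CPM).

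Of the other genes lower in UUO, 3 had at most 11.2% of their UIR counts expected from free RNA. *Hsp90aa1*, the stress-inducible HSP90 chaperone, went from 579 and 927 to 295, 331 and 250 CPM (log2 fold change -1.39 ± 0.31, edgeR adjusted p = 0.0151). *Mndal*, an interferon-inducible member of the Ifi200 family, went from 599 and 600 to 246, 269 and 200 (-1.33 ± 0.32, adjusted p = 0.0388). *Bst2* (tetherin), an interferon-induced antiviral membrane protein, went from 279 and 248 to 107, 69.2 and 50.03 (-1.73 ± 0.43, adjusted p = 0.0467). The tested pools of the groups did not overlap in these 3 genes, which for *Mndal* was a condition of being named. Each call was lost without UIR replicate 3, which leaves 1 UIR library. Without UUO replicate 2 or 3 they were lost as well (0.110 to 0.250). *Mndal* was also lost without UIR replicate 2 and UUO replicate 1, and *Bst2* without UIR replicate 2. Over all alternatives that tested them, the call held in 7 of 16 for *Hsp90aa1*, 4 of 16 for *Mndal* and 3 of 12 for *Bst2*. None of the calls of these 3 genes, *Xcl1* and *Ly6c2* held with free RNA subtracted (edgeR adjusted p = 0.350 to 0.624), at a mitochondrial limit of 15% (0.114 to 0.491) or without the NK cells of highest UMIs (0.0575 to 0.152), while the log2 fold changes with free RNA subtracted stayed close to the values above (*Xcl1* -1.79, *Hsp90aa1* -1.37, *Mndal* -1.42, *Bst2* -1.92 and *Ly6c2* 1.44). DESeq2 called *Hsp90aa1* (adjusted p = 0.0377) but not *Xcl1* (0.228), *Mndal* or *Ly6c2* (0.0785 each).

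The remaining 5 calls were of genes that free RNA also holds, and its part in them was not tested gene by gene. *Gpx3*, *Kap* and *Fxyd2*, genes of kidney tubules, fell by 5.31, 3.50 and 4.01 on the log2 scale, and *mt-Nd2* and *mt-Co2* of the mitochondrial genome by 1.26 and 0.92. Leaving out 1 library ended the calls of *mt-Nd2* (without UIR replicate 2 or 3 or UUO replicate 2, edgeR adjusted p = 0.0633 to 0.438), *mt-Co2* (without UIR replicate 2 or 3 or UUO replicate 2 or 3, 0.110 to 0.772) and *Fxyd2* (without UIR replicate 3, 0.385). Those of *mt-Nd2* and *mt-Co2* also ended at 15% mitochondrial UMIs (edgeR adjusted p = 0.197 and 0.514) and, with *Kap*, when 3 of the 4 markers were required (0.0817 for *Kap*, 0.144 for both others). From 81.4% to 100% of the UIR counts of these 5 genes were expected from free RNA. *Gpx3*, *Kap* and *Fxyd2* are among the 16 tubular genes that set the free RNA share. A high value was therefore largely fixed in advance for these 3 and says little on their calls. With free RNA subtracted, *mt-Nd2* and *mt-Co2* were at 0.03 and 0.48, *Gpx3*, *Kap* and *Fxyd2* were no longer among the genes tested, and no gene passed the test in either direction.

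**Figure D4:**
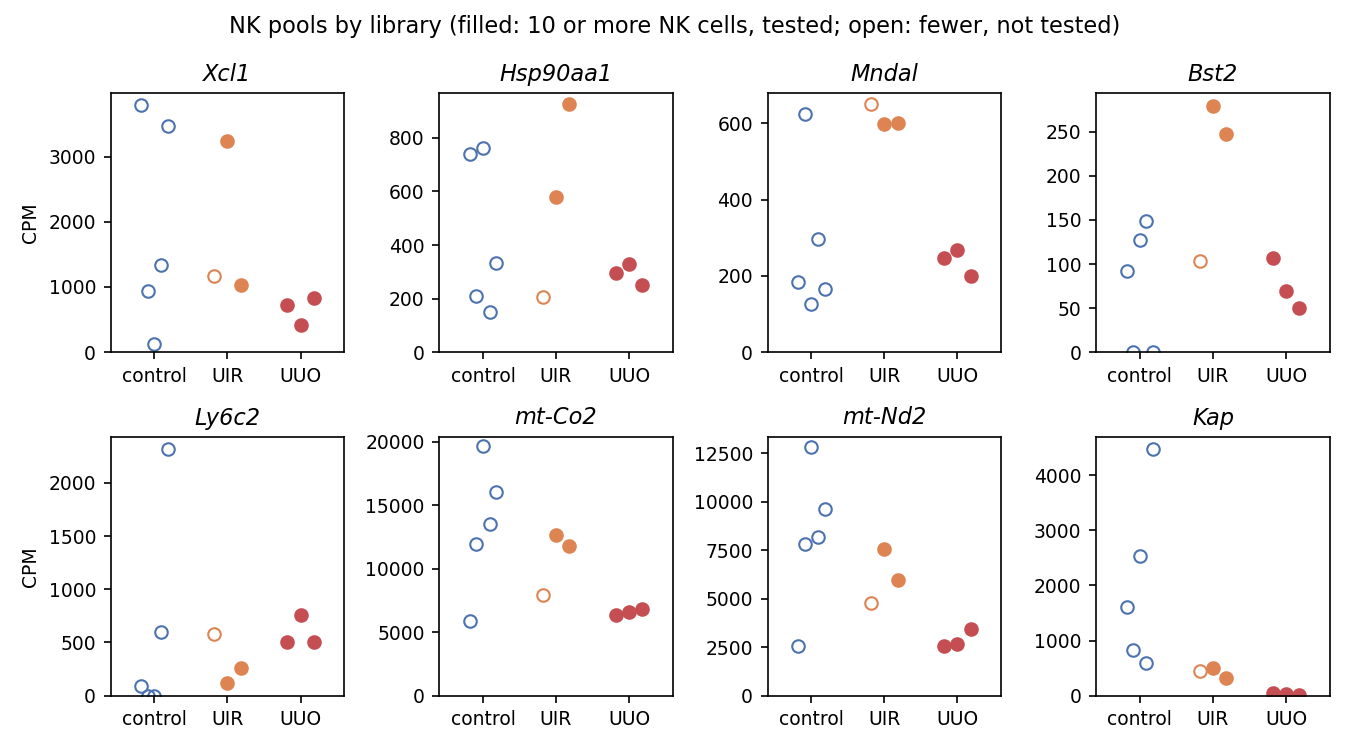
CPM in the NK cells of each library for 8 of the 10 called genes; filled points are pools of at least 10 NK cells, which were tested, and open points smaller pools, which were not. UUO libraries lie below UIR replicates 2 and 3 for *Xcl1*, *Hsp90aa1*, *Mndal*, *Bst2*, *mt-Co2*, *mt-Nd2* and *Kap* and above them for *Ly6c2*, while the controls scatter widely.

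Of 19 listed cytolytic genes, 10 were tested and 0 called, where 0.0723% of all genes were called higher and 0.65% lower, with a median log2 fold change of 0.41 against 0.01 over all genes. *Nkg7* stood at 2515 and 1697 CPM in the tested UIR pools and 3806, 2959 and 3085 in UUO (log2 fold change 0.62 ± 0.26, edgeR adjusted p = 0.454). *Gzmb* stood at 339 and 222 against 295, 723 and 350, and *Prf1* at 259 and 157 against 139, 338 and 267. *Ccl5* stood at 4671 and 6212 against 14233, 9662 and 7588 (0.91 ± 0.27, edgeR adjusted p = 0.134).

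The receptor lists held no call either, beside the low shares called among all genes. Of 16 further NK identity genes all were tested and 0 called (median log2 fold change -0.06). *Klrk1* stood at 1502, 1520 and 1426 CPM over all control, UIR and UUO cells and *Klrd1* at 867, 1001 and 1089.9. Of 11 tested activating receptors and adaptors and 8 tested inhibitory receptors, 0 were called (medians 0.01 and -0.09). Of receptors known from exhaustion, *Pdcd1*, *Tigit* and *Havcr2* were detected in 0 of the 121 cells and *Ctla4* in 1. *Lag3* was detected in 8 (6.61%, against 5.56% of T cells). Among 11 tested developmental transcription factors 0 were called (median -0.17), with *Eomes* in 4 of 13, 14 of 37 and 27 of 71 cells.

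Over the 1384 tested genes outside the rule 51.5% had a positive log2 fold change, 0.0723% were called higher and 0.65% lower. Of the mature side of NK development 6 of 13 were tested and all 6 were positive (median log2 fold change 0.65), with *Ly6c2* the 1 called. Of the immature side 9 of 12 were tested and 2 were positive (median -0.16), with *Xcl1* the 1 called. Of 29 interferon-stimulated genes 6 were tested and 0 were positive (median -1.37), with *Bst2* the 1 called. These tests left out UIR replicate 1. With that pool included, the summed interferon list spanned 1063 to 2934 CPM in UIR and 834 to 1307 in UUO. The mature side spanned 1214 to 2779 in UIR and 1575 to 2905 in UUO. The immature side spanned 3568 to 6627 and 2713 to 3814. Controls spanned 935 to 1486, 1247 to 3641 and 1777 to 6925, in the same order of lists. The UIR and UUO ranges overlapped in each of these lists, and the sums were not tested. *Isg15*, a ubiquitin-like interferon product, stood at 279 and 144 CPM in UIR and 32.8, 92.2 and 0 in UUO (log2 fold change -2.03 ± 0.67, edgeR adjusted p = 0.234). Of 12 tested mitochondrial genes all were negative (median -0.85) and 2 were called, beside the free RNA given above.

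The UMIs of *Ccl3*, *Ccl4* and *Ifng* rested on few cells, unlike those of *Ccl5*, which was detected in 116 of the 121 cells. *Ccl3* or *Ccl4* was detected in 7 of 13 cells in controls, 10 of 37 after UIR and 27 of 71 after UUO. In controls 1 cell of replicate 1 with 3603 UMIs held 176 of 181 *Ccl3*, 287 of 400 *Ccl4* and 38 of 40 *Ifng* UMIs. The same cell held 20 of 21 *Nr4a1*, 28 of 31 *Nr4a2* and 23 of 28 *Nr4a3* UMIs, transcription factors induced within minutes to hours of receptor stimulation. Without it the 12 other control cells had 103 CPM of *Ccl3* and 2338 of *Ccl4*, with 51.3 and 218 in UIR and 958 and 2311 in UUO. In UUO single cells dominated as well, with 354 and 310 of the 721 *Ccl4* UMIs and 143 and 121 of the 299 *Ccl3* UMIs in 2 cells each. *Ifng* was detected in 3, 5 and 12 cells of the 3 groups, and any *Nr4a* gene in 5, 1 and 5.

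The proliferation genes *Mki67* and *Top2a* were detected in few NK cells, whereas other cell cycle genes were not rare, with *H2afz* in 108 of 121 cells, *Hmgb2* in 77 and *Pcna* and *Stmn1* in 20 each. *Mki67* or *Top2a* was detected in 3 of 13 cells in controls, 0 of 37 after UIR and 7 of 71 after UUO, where 0 of 37 allows a share of up to 8.11%. All 7 UUO cells were of replicate 2, in which they were 7 of 32 cells. Of 20 cell cycle genes 3 were tested and 0 called (median log2 fold change 0.50).

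Class II genes in UUO came largely from 1 barcode. A cell of UUO replicate 1 with 11023 UMIs held 506 of 618 *Cd74*, 141 of 168 *H2-Eb1* and 88 of 141 *H2-Ab1* UMIs of the UUO NK cells. It met the rule by 1 UMI each of *Ncr1* and *Klre1* and had 0 of *Nkg7*. A cell of UUO replicate 2 with 11768 UMIs held 26 of 29 *Emcn* UMIs, an endothelial gene, beside 4 of *Klrb1c* and 1 of *Ncr1*. Without the 5 NK barcodes with 10 or more class II UMIs, 3 genes were called higher and 11 lower in UUO.

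Few genes were called for a change between the injuries that differed between NK and T cells. An interaction test over NK and T pools of the same 5 libraries called 8 of 9666 genes (0.0828%). A gene could enter it through T cells alone, and 1384 passed the filter in the NK pools by themselves. Most of the 9666 thus had few NK UMIs, so the low share does not show that both cell types changed alike. *Ly6c2* had a log2 difference of changes of 1.59 ± 0.37 (SE, NK minus T, edgeR adjusted p = 0.0264), since T cells held 325 and 501 CPM in UIR and 423, 478 and 464 in UUO. *Clu*, the secreted chaperone clusterin, had 3.43 ± 0.56 (adjusted p = 7.59e-06). Its level was 999 CPM in the NK pool of UUO replicate 2, from 18 of 32 cells, and 0 to 59.9 in the other tested NK pools. Without that library the difference for *Clu* was -0.07, and 1 gene was called in place of 8. The difference for *Ly6c2* was lost without UIR replicate 2, UIR replicate 3 or UUO replicate 2 (adjusted p = 0.419 to 0.801) and without a filter on low counts (0.121).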

How the data were processed

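The 11 libraries were 10x Chromium 3′ single-cell RNA sequencing of kidney suspensions. The authors deposited raw UMI counts of every barcode and gene, empty droplets included, before removal of ambient RNA and doublets. Their processing notes and the matrix headers name Cell Ranger 3.1.0 and mm10. From these counts the limits and the rule above were applied, and no doublet caller was run. The rule leaves out barcodes with *Cd3*, *Cd79b*, *Epcam* or 2 *C1q* genes only, so doublets with other cells can remain. The members and gene lists were chosen with earlier results of these data known. CPM are the UMIs of a gene per 1000000 UMIs of the pooled cells. Shares were compared over libraries by exact permutation tests, two-sided. Pools of at least 10 NK cells were tested with edgeR 4.0.16 (R 4.3.3; filterByExpr, TMM, quasi-likelihood, Benjamini-Hochberg, threshold 0.05), and the NK and T cell interaction with the library as a block. DESeq2 1.42.0 was an alternative. p-values measure the spread between these libraries. Expected free RNA was the profile of barcodes ranked 45000 to 90000, scaled by tubular genes. On simulated counts for NK cells in UUO against UIR (1388 genes, 1 dispersion of 0.0514 for all), 30 of 113 genes changed 2-fold and 78 of 87 changed 4-fold were recovered, with 5 false calls. Single cells that hold much of a gene's UMIs were not simulated, so recovery in the real pools can differ. Genes were named if in the rule, or if called and in a list, with up to 4 uncalled members per list by mean level, or among the called genes with the largest changes, at least 50 CPM and separate groups. The Ly49 split and its genes, *Cxcr6* cells and single cells were chosen after their values had been seen. Control contrasts of expression were not tested, since no control library held 10 NK cells. Alternatives were the UMI, mitochondrial and marker limits, thinning to 1000 UMIs, free RNA subtraction, normalization, filters and leaving out each library.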

Additional observations from a re-analysis of the deposited data

Results flagged for a closer look

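A test of the difference between 2 cell types pointed to 8 genes whose change from UIR to UUO was not the same in NK cells as in T cells of the same libraries (edgeR, adjusted p under 0.05). The log2 difference, NK minus T, was 3.43 for *Clu*, 2.22 for *Atp1b1*, 3.39 for *Napsa*, 3.78 for *S100g*, 4.79 for *Wfdc2*, 2.28 for *Ly6a*, 1.59 for *Ly6c2* and -2.79 for *Isg20*. Without UIR replicate 2 the call held for *Clu* alone of the 8, and without UUO replicate 2 for *Napsa* alone (edgeR adjusted p = 0.0137). Without UIR replicate 3 those of *Wfdc2*, *Ly6a*, *Isg20* and *Ly6c2* were lost (0.0681 to 0.419). Without a filter on low counts those of *Ly6a*, *Isg20* and *Ly6c2* were lost as well (edgeR adjusted p = 0.0972, 0.0786 and 0.121). With 1 library left out the difference ranged from 1.65 to 2.68 for *Atp1b1*, 2.58 to 11.9 for *Napsa*, 2.64 to 11.1 for *Wfdc2*, 1.45 to 3.59 for *Ly6a* and -3.96 to -1.56 for *Isg20*. Among the 5 tested NK pools, *Clu*, *S100g* and *Wfdc2* had their highest level in UUO replicate 2, at 999, 177 and 331 CPM, from 18, 9 and 9 of its 32 cells. *S100g* is one of the 16 tubular genes that set the free RNA share. That share was 10.3% in NK and 3.82% in T cells of this library. It was 3.35% and 12.3% in UUO replicate 1, 1.64% and 3.93% in UUO replicate 3, and 10.5% and 35.1%, and 35.5% and 28.9%, in UIR replicates 2 and 3. Its part in these differences was not tested. In the NK cell with the most *Clu* (20 of 1452 UMIs) the rule was met by 1 UMI each of *Gzma* and *Klre1*, and *Nkg7* and *Epcam* were at 0. *Atp1b1*, a sodium pump subunit, fell by 1.87 on the log2 scale in T cells (edgeR adjusted p = 0.0242), and it was detected in 59 of 78 NK cells with a Ly49 gene and 13 of 43 without. *Napsa* was highest in UUO replicate 1, where 15 of its 24 UMIs came from the cell of 11023 UMIs that also held most class II transcripts.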

How the results depend on the processing

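Shares kept their direction under every alternative run. At a mitochondrial limit of 15% the unadjusted p among kept barcodes was no longer under 0.05 (differences 0.0471 for UIR, 0.285 for UUO). For NK plus T cells, UUO against control had an unadjusted exact permutation p of 0.0357 with 1000 UMIs (-6.29), 3 of 4 markers (-5.71), no *Gzma* in the rule (-6.71) or thinning (-5.20). Against control replicate 1 alone the *Ptprc* differences were -2.61 and -2.09 and those of NK plus T cells -16.9 and -13.8 (UIR, UUO), and against replicates 4 and 5 those of UUO were -0.199 and -2.30. With 1 library left out, designs of 4 against 3 or 5 against 2 cannot reach 0.05 (exact permutation p = 0.0571 at best), and differences ranged from 0.0622 to 0.116 and 0.281 to 0.457 among kept barcodes (UIR, UUO), -1.64 to -1.14 of *Ptprc* barcodes and -10.3 to -7.16 of NK plus T cells (UIR). Expression counts depended on the settings. Genes higher and lower in UUO numbered 1 and 9, but 13 and 20 without a filter, 0 and 4 with 5 cells per pool or without the cells of highest UMIs, 0 and 3 at 15% mitochondrial UMIs, 0 and 0 with free RNA subtracted, 0 higher with DESeq2, 2 higher with RLE, 3 lower with 3 of 4 markers, and, in alternatives added after seeing the data, 2 higher without *Trac* cells and 3 higher without class II barcodes. Leaving out a library gave 0 to 2 higher and 3 to 15 lower. The replicate block on the number in the title gave 0 and 3. Deviations of the 2 same-numbered pairs correlated at -0.09 and -0.02, and those of the differently numbered pairs at 0.09 and 0.02. With 2 tested UIR pools these values mirror each other by design, so they cannot tell whether the numbers pair the samples. No pairing was assumed. With free RNA subtracted *mt-Nd2* and *mt-Co2* turned to 0.033 and 0.48. The interaction called 5 genes without a filter and 1 to 17 with a library left out, where *Clu* ranged from -0.070 (without UUO replicate 2) to 4.46 and *S100g* from -5.36 (likewise) to 4.98. A limit of 20 cells was not run, as no UIR pool reached it.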
